A study of Mus musculus with 8 samples.

Results

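The natriuretic peptide system was followed through 8 genes: the 3 peptide precursor genes Nppa, Nppb and Nppc, the 3 receptor genes Npr1, Npr2 and Npr3, and the genes of 2 convertases that cut the precursors, Corin and Furin. The members were taken by symbol: a probe set counted when its annotation named exactly 1 of these symbols, and each gene was read by the probe set with the highest mean over the 8 arrays. Each of the 8 genes had 1 such probe set, and together they are 8 of the 19938 genes read in this way. The 4 groups each held 2 mice of the C57Bl6 strain aged 9 weeks, with 1 whole-genome expression array per heart: homozygous GATA4 S105A mice given PE (mice 7 and 8), homozygous GATA4 S105A mice left untreated (mice 5 and 6), wild-type (WT) mice given PE (mice 3 and 4) and WT mice left untreated (mice 1 and 2). An osmotic pump under the skin gave PE continuously for 5 days (100 mg/kg/day), and S105A replaces a serine of the cardiac transcription factor GATA4 by alanine. The labels are not uniform: titles call the samples whole heart and the tissue entry adds ventricle, the control mice are called untreated in titles while the protocol mentions saline, and PE is spelled out as pseudophedrine. Values are log2 intensities, so a difference of 1 is a doubling.

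The atrial and brain natriuretic peptides are hormones that the heart makes in larger amounts under load. Atrial natriuretic peptide (encoded by Nppa) and brain natriuretic peptide (Nppb) are cut from longer precursors, bind the membrane guanylyl cyclase NPR1 and raise cyclic GMP in blood vessels, kidney and heart, while C-type natriuretic peptide (Nppc) acts through NPR2. NPR3 lacks the cyclase domain and removes peptides from the circulation, corin is a cardiac membrane protease that cuts the atrial precursor, and furin is a convertase of the secretory pathway. After birth the working ventricle expresses little Nppa, and its return in stressed ventricles is a classic sign of the fetal gene programme, with GATA4 among the known activators of both heart peptide genes.

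Nppa and Nppb lie next to each other on chromosome 4, both on the plus strand. Their promoters are shown because the study changed a GATA factor and because these are the 2 members with the largest PE differences. The sequences come from RefSeq (GRCm38.p6), run 5′ to 3′ from 250 bases before to 50 bases after the annotated start, and span chr4:148000472-148000771 for Nppa and chr4:147985650-147985949 for Nppb. Capitals mark matches, on either strand, to a GATA word (AGATAA, or the same word with T first, with G last, or with both), to the MCAT word CATTCC or to the NKX word TNAAGTG.
Nppa: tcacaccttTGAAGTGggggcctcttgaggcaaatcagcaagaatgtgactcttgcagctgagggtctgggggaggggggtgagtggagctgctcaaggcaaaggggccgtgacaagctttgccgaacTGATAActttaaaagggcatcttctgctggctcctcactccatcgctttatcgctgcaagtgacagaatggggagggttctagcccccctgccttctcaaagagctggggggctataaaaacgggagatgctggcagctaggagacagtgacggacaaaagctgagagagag
Nppb: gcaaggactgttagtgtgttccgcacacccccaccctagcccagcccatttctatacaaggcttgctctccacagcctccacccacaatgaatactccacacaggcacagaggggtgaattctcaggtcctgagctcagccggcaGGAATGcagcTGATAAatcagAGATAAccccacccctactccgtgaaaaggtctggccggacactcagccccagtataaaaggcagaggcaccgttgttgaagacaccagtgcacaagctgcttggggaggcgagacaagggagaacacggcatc
The Nppa window holds 1 GATA word, TGATAA, 122 bases before the start, and 1 NKX word, TGAAGTG, 241 bases before it. In the Nppb window 2 GATA words, TGATAA at 95 and AGATAA at 84 bases before the start, follow closely after an MCAT word, which reads GGAATG on the strand shown. No 2 matches overlap. Of 32851 mouse promoter windows of the same length, 29.8% held at least 1 GATA word, 7.77% at least 2, 14.7% the MCAT word and 11.5% the NKX word, so the single matches are common ones. The letters TATAAA, left in lower case, stand 9 bases before the annotated start of Nppa and 31 bases before that of Nppb, and 13.6% of all windows hold them. None of the windows of the other 6 members holds a GATA word or the MCAT word. A Furin window holds 2 NKX words, TCAAGTG at 206 and TAAAGTG at 6 bases before the start, where 0.989% of all windows hold at least 2. That window also has TATAAA 23 bases before the start, and the Nppc window has it 29 bases before.

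Along the main axis of variation between arrays (a principal component with 69.5% of the variance), mouse 7 (25.1) and mouse 3 (53.3) stood apart from mouse 8 (-5) and mouse 4 (-0.4), with the 4 untreated mice between -20.8 and -16.1, so the mice of each PE group differed widely from each other. Averaged PE differences are therefore also given without mice 7 and 3 for the members, and for named genes of the pathway lists where a difference over 0.1 in size moves by more than 1.5 times. Only 1 gene passed an adjusted p of 0.05 in the PE comparison averaged over genotypes: Myh7, the fetal myosin heavy chain, with a log2 difference of 2.30 (limma, adjusted p = 0.008). Gata4 read between 9.92 and 10.16 on every array, and this says nothing of the genotype labels, since a single-codon change does not alter what such a probe set reads.

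The peptide genes Nppa and Nppb carried the largest PE differences among the members in both genotypes, and the clearance receptor gene Npr3 had the largest difference in the other direction. On average over genotypes the PE mice stood above the untreated mice by 2.28 in Nppa and by 0.93 in Nppb, and below them by 0.57 in Npr3. The receptor genes Npr1 and Npr2, the convertase genes Corin and Furin and the third peptide gene, Nppc, had averaged differences no larger than 0.16 in size. None of the 8 members passed the adjusted threshold in limma in this comparison, where 0.00502% of all genes did. At an unadjusted p under 0.05, 2 members were higher (Nppa and Nppb) and 2 lower (Nppc and Npr3), against 9.31% and 7.44% of all genes. The median difference of the 8 members was 0.003, beside -0.02 for all 19938 genes.

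**Figure D1:**
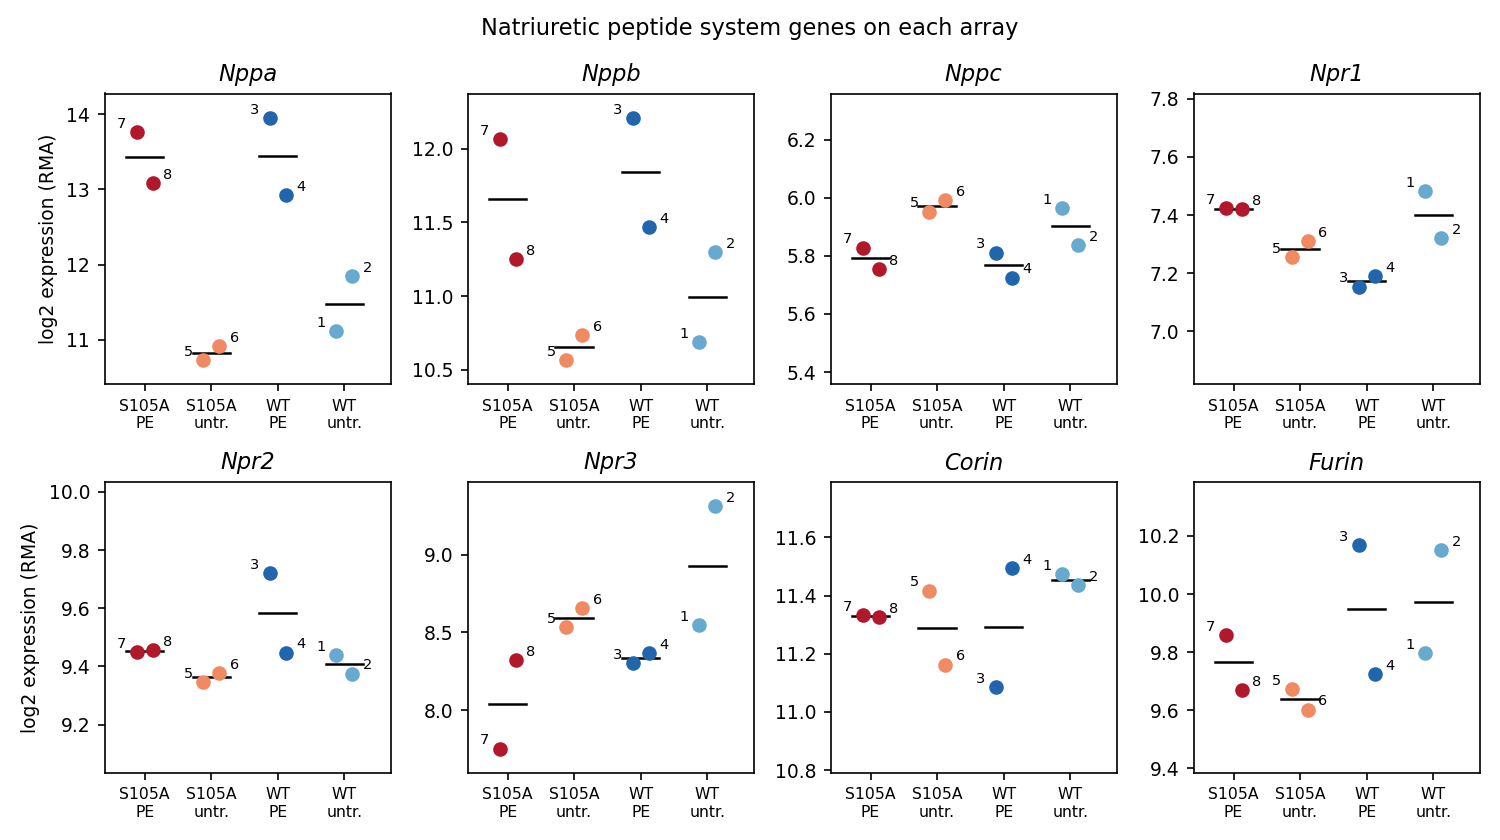
Log2 intensity of each of the 8 members on every array, 1 panel per gene, with groups along the horizontal axis, 1 point per mouse (labelled with its number) and a line at the mean of each pair; the vertical scales differ between panels. All 4 PE mice lie above all 4 untreated mice in Nppa (12.92 to 13.95 against 10.73 to 11.84), while in Npr1 the PE mice lie above the untreated ones in S105A (7.42 and 7.42 against 7.26 and 7.31) and below them in WT (7.15 and 7.19 against 7.48 and 7.32).

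Nppa had 13.76 and 13.08 in S105A hearts under PE, against 10.73 and 10.92 in untreated S105A hearts. In WT hearts it had 13.95 and 12.92 under PE, against 11.11 and 11.84 without it. All 4 PE hearts lay above all 4 untreated hearts, with a gap of more than 1 between the lowest PE heart and the highest untreated one. The averaged difference was 2.28 (SE 0.28, 95% interval 1.61 to 2.95), which is 4.86-fold (3.04 to 7.74), with an adjusted p of 0.234 in limma. Within S105A the difference was 2.60 (SE 0.40, 6.06-fold, limma adjusted p = 0.765), and within WT it was 1.96 (SE 0.40, 3.89-fold, limma adjusted p = 0.419). Without mice 7 and 3, which were highest within their groups, the averaged difference was 1.85 and passed the threshold (limma adjusted p = 0.0189), an alternative chosen after seeing the data. Without mouse 4 alone, it was 2.54 averaged (limma adjusted p = 0.00467) and 2.47 within WT (limma adjusted p = 0.00823), with 1 WT heart left under PE and 4137 genes past the threshold in the averaged comparison. The range of Nppa over the 8 arrays was wider than that of 99.7% of all genes.

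Nppb had 12.07 and 11.25 in S105A hearts under PE, against 10.57 and 10.74 in untreated S105A hearts. In WT hearts it had 12.21 and 11.47 under PE, against 10.69 and 11.30 without it. The PE hearts lay above the untreated ones within each genotype, but across genotypes the groups overlapped, since mouse 8 (11.25, S105A under PE) was below mouse 2 (11.30, untreated WT). The averaged difference was 0.93 (SE 0.25, 95% interval 0.33 to 1.52), or 1.90-fold, with a limma adjusted p of 0.275. Within S105A it was 1.01 (SE 0.35) and within WT 0.84 (SE 0.35), with limma adjusted p-values of 0.765 and 0.419. Leaving out mice 7 and 3 brought the averaged value to 0.54, with 0.60 in S105A and 0.47 in WT. Leaving out mouse 4 alone brought the averaged value to 1.11, with 1 WT heart left under PE.

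The 2 mice of each group differed the same way in Nppa and in Nppb, in all 4 groups. Under PE in S105A, mouse 7 exceeded mouse 8 by 0.68 in Nppa and by 0.81 in Nppb, and under PE in WT, mouse 3 exceeded mouse 4 by 1.03 and by 0.74. Among untreated hearts, mouse 5 was below mouse 6 by small amounts (differences of -0.18 and -0.17), and mouse 1 was below mouse 2 (-0.73 and -0.61). In Nppa the gap between the untreated WT hearts lay between the gaps of the PE pairs, and in Nppb it was below both. The peptide genes thus varied widely without PE in the WT pair, but not in the S105A pair. In Npr3 the same pairs ran the other way under PE (-0.57 for mouse 7 minus mouse 8, -0.06 for mouse 3 minus mouse 4) but the same way as the peptides among untreated hearts (-0.12 and -0.76).

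The 2 peptide genes also differed from each other in the size of their PE difference. The log2 ratio of Nppa to Nppb within an array was 1.70 and 1.83 in S105A hearts under PE and 0.17 and 0.18 in untreated S105A hearts. For WT hearts it was 1.74 and 1.45 under PE, against 0.42 and 0.54 without it. These ratios compare unequal changes and not amounts of the 2 transcripts, since probe sets differ in brightness. Under PE the ratio averaged 1.68 ± 0.16 and without PE 0.33 ± 0.19 (SD, n = 4 each), a difference of 1.35 or 2.56-fold, with no overlap between the groups. It was 1.59 in S105A and 1.11 in WT. This ratio was singled out after its values were seen and carries no test.

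Nppc, the gene of the C-type peptide that endothelial cells mainly secrete, read a little below the array medians (6.18 to 6.23). It had 5.83 and 5.75 in S105A hearts under PE, against 5.95 and 5.99 in untreated S105A hearts, and 5.81 and 5.73 in WT hearts under PE, against 5.97 and 5.84 in untreated WT hearts. Every PE heart was below every untreated heart, but by small amounts on this scale. The averaged difference of -0.16 (SE 0.06, limma adjusted p = 0.287, and -0.20 without mice 7 and 3) is small beside those of Nppa and Nppb.

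Among the receptors, Npr3 was the only one with an averaged PE difference above 0.5 in size. Npr3 had 7.75 and 8.32 in S105A hearts under PE, against 8.53 and 8.66 in untreated S105A hearts, and 8.31 and 8.37 in WT hearts under PE, against 8.55 and 9.31 in untreated WT hearts. All 4 PE hearts lay below all 4 untreated hearts, although mouse 4 (8.37) and mouse 5 (8.53) were close together. The averaged difference was -0.57 (SE 0.19, 95% interval -1.03 to -0.12, 0.672-fold), with a limma adjusted p of 0.281. It was -0.56 in S105A and -0.59 in WT (SE 0.27 each). Without mice 7 and 3 it was -0.42 averaged, -0.27 in S105A and -0.56 in WT. With single mice left out it ran between -0.84 and -0.27 in S105A and between -0.97 and -0.21 in WT, so neither value is settled by 2 hearts a group. Npr3 varied over the arrays more than 97.1% of all genes, close to the 97.4% of Nppb, and 2 hearts at its ends, mouse 7 (lowest) and mouse 2 (highest), set much of that range.

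Npr1, the gene of the guanylyl cyclase receptor for the atrial and brain peptides, had opposite PE differences in the 2 genotypes. It read 7.42 and 7.42 in S105A hearts under PE, against 7.26 and 7.31 in untreated S105A hearts. In WT hearts it read 7.15 and 7.19 under PE, against 7.48 and 7.32 in untreated ones. Within each genotype the groups did not overlap, but all values lie within 0.33 of each other. The PE difference was 0.14 in S105A and -0.23 in WT (SE 0.09 each), -0.05 averaged and -0.04 averaged without mice 7 and 3, and the difference between these, S105A minus WT, was 0.37 (SE 0.12, 95% interval 0.08 to 0.65, limma adjusted p = 1.00). Npr1 was the 1 member with an unadjusted p under 0.05 in that comparison, on the higher side, where 0.903% of all genes stood (1.52% stood on the lower side), and 0% of all genes passed the adjusted threshold.

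Npr2, the gene of the receptor for C-type peptide, had 9.45 and 9.46 in S105A hearts under PE, against 9.35 and 9.38 in untreated S105A hearts. In WT hearts it had 9.72 and 9.45 under PE, against 9.44 and 9.38 in untreated hearts. The PE hearts lay above all untreated ones, in the case of mouse 4 and mouse 1 by less than 0.01. The averaged difference was 0.13 (SE 0.07, limma adjusted p = 0.373), and 0.07 without mice 7 and 3. Nppa and Npr2 were the 2 members in which all PE hearts were higher, and Nppc and Npr3 the 2 in which all were lower, where 6.70% and 6.15% of all genes separated in those directions.

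The convertase genes showed no PE difference beyond their spread. Corin, which cuts the atrial precursor at the surface of cardiomyocytes, had 11.33 and 11.33 in S105A hearts under PE, against 11.42 and 11.16 in untreated S105A hearts, and 11.09 and 11.50 in WT hearts under PE, against 11.47 and 11.43 in untreated WT hearts. Its averaged difference was -0.06 (SE 0.11, 95% interval -0.31 to 0.19, limma adjusted p = 0.786), and 0.04 without mice 7 and 3. Furin, a convertase able to cut the brain and C-type precursors, had 9.86 and 9.67 in S105A hearts under PE, against 9.67 and 9.60 in untreated S105A hearts, and 10.17 and 9.73 in WT hearts under PE, against 9.80 and 10.15 in untreated WT hearts. Its averaged difference was 0.05 (SE 0.13, 95% interval -0.25 to 0.35, limma adjusted p = 0.859), and -0.11 without mice 7 and 3. The intervals leave room for changes down to -0.31 or up to 0.19 in Corin, and down to -0.25 or up to 0.35 in Furin. Small shifts were thus not detectable with this number of arrays.

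**Figure D2:**
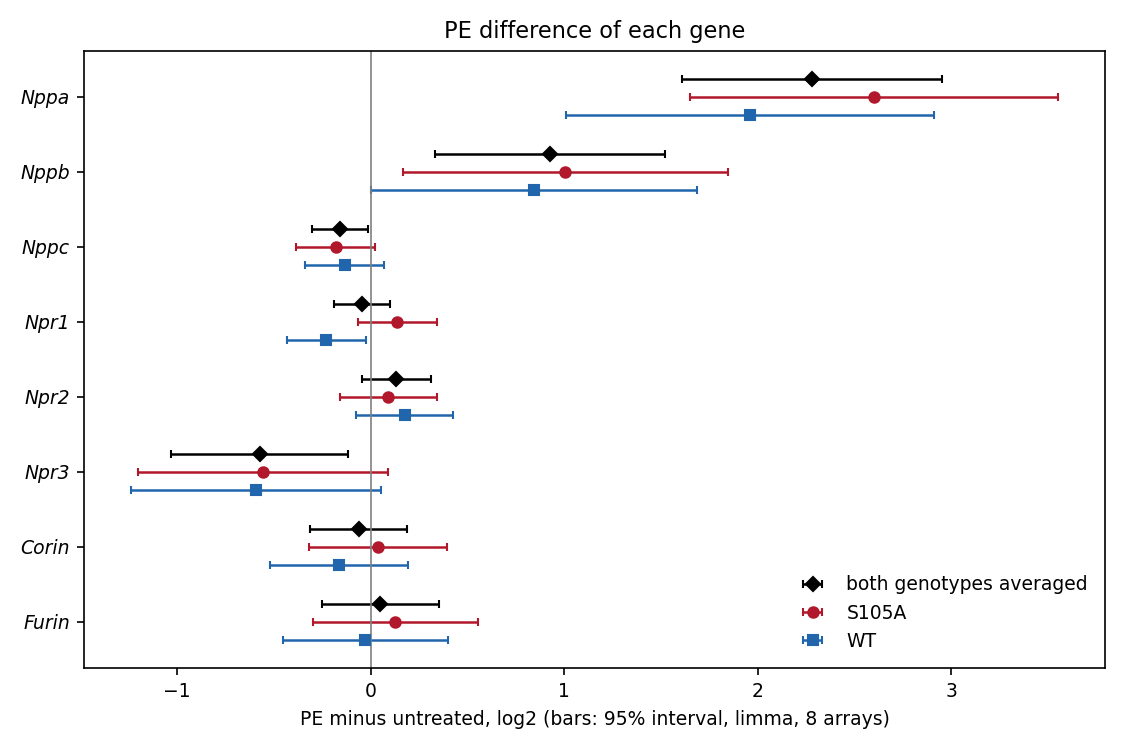
PE minus untreated log2 difference of each member within S105A, within WT and averaged over genotypes, with 95% intervals from limma and a line at 0. Nppa (2.28 averaged) and Nppb (0.93) lie to the right of 0, Npr3 (-0.57) to the left, and the intervals of Corin and Furin cover 0.

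Within S105A alone, 2 members (Nppa and Nppb) had an unadjusted p under 0.05 and a higher value under PE, and 0 a lower one, against 3.09% and 2.77% of all genes. None passed the adjusted threshold in limma, nor did any other gene (0%). Within WT, Nppa and Nppb were again the 2 on the higher side and Npr1 the 1 on the lower, against 5.99% and 5.76% of all genes, and none of the members passed the adjusted threshold, which 0.00502% of all genes did. In S105A the 2 PE hearts lay above both untreated ones in 4 members and below them in 2, where 20.2% and 25.2% of all genes did so. The counts were 3 and 3 in WT, where the shares of all genes were 22.7% and 23.5%. With 2 hearts a group such a separation is common, so these counts say little by themselves.

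The genotype was compared under PE and without it. Under PE, S105A minus WT was -0.01 in Nppa (SE 0.40, 95% interval -0.97 to 0.94) and -0.18 in Nppb (SE 0.35, 95% interval -1.02 to 0.66). The peptide genes thus had nearly the same mean in the 2 PE groups, 13.42 ± 0.48 in S105A and 13.44 ± 0.73 in WT for Nppa and 11.66 ± 0.57 in S105A and 11.84 ± 0.52 in WT for Nppb (SD, n = 2 each), but the intervals are wide enough to hold a near doubling in either direction for Nppa. Npr1 was the 1 member whose S105A hearts both lay above both WT hearts, and also the 1 with an unadjusted p under 0.05, on the higher side: the difference was 0.25 (SE 0.09, limma adjusted p = 0.989). Of all genes, 10.5% separated in that way and 13.0% in the opposite one, where 0 members did, 1.25% had such a p in that direction (1.43% in the other, with 0 members), and 0% passed the adjusted threshold. For the remaining members the difference under PE was between -0.30 (Npr3) and 0.04 (Corin).

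Without PE, S105A minus WT differences in the members were mostly below 0, and several rested on 1 WT heart. The difference was below 0 in 7 of 8 members, as in 49.1% of all genes, with a median of -0.25 beside 0.003 for all genes, and for 4 of them (Nppa, Npr1, Corin and Furin) both S105A hearts lay below both WT hearts, as 22.7% of all genes did, while 0 members stood above them without overlap, as 21.8% did. None had an unadjusted p under 0.05, against 2.43% of all genes on the higher side and 2.53% on the lower, and 0% of all genes passed the adjusted threshold in limma. In Nppa the means were 10.82 ± 0.13 in S105A and 11.48 ± 0.52 in WT (SD, n = 2 each), a difference of -0.65 (SE 0.40, 95% interval -1.61 to 0.30). In Nppb the difference was -0.34 (SE 0.35), in Furin -0.34 (SE 0.18) and in Npr3 -0.33 (SE 0.27). Mouse 2, an untreated WT heart, was the highest untreated heart in Nppa, Nppb, Npr3 and Furin. Without it the differences were -0.29 in Nppa, -0.04 in Nppb, -0.16 in Furin and 0.05 in Npr3. These values enter the PE differences too: the larger Nppa difference in S105A (2.60) than in WT (1.96) goes with the lower untreated level in S105A, and the difference between them, 0.64 (SE 0.57, 95% interval -0.71 to 1.99, limma adjusted p = 1.00), was within the error. For Nppb it was 0.16 (SE 0.50).

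The genes around the peptide pair on chromosome 4 gave a local comparison. Of the 3 annotated neighbours on each side, 4 of 6 were measured. Mfn2, which encodes a mitochondrial fusion protein, had an averaged PE difference of -0.17 (SE 0.07) and Plod1, a collagen lysyl hydroxylase gene, one of 0.15 (SE 0.07). Clcn6, a chloride transporter gene, had 0.07 (SE 0.08), and the uncharacterised gene 2510039O18Rik had 0.02 (SE 0.05). Limma's adjusted p-values ran between 0.292 and 0.888, and only in Mfn2 did the PE and untreated hearts not overlap. Each of these differences was smaller in size than those of Nppa and Nppb on the same scale.

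The profiles most like those of the members were ranked by the root mean square difference over the 8 arrays, after each gene's own mean was subtracted. Nearest to Nppa were Ms4a7 (0.307), a macrophage membrane protein gene, Mfap5 (0.362), a microfibril gene, Mpeg1 (0.382), a macrophage gene, Ccn2 (0.393), which encodes a matricellular growth factor, and Col3a1 (0.398), the type III collagen gene. Nppb ranked only at place 137 from Nppa, with 0.694, since its swing was smaller. Nearest to Nppb were C1qb (0.0868), a complement gene of macrophages, Wfdc17 (0.0970), Fcer1g (0.108), an Fc receptor chain of myeloid cells, Ptgs2 (0.115), an inducible cyclooxygenase gene, and Plek (0.118), a leukocyte and platelet gene. For Npr3 the nearest were Car2 (0.193), a carbonic anhydrase gene, Gdpd5 (0.193), Apobec3 (0.201), Rgs6 (0.207), a regulator of G protein signalling, and Sh3rf2 (0.210).

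**Figure D3:**
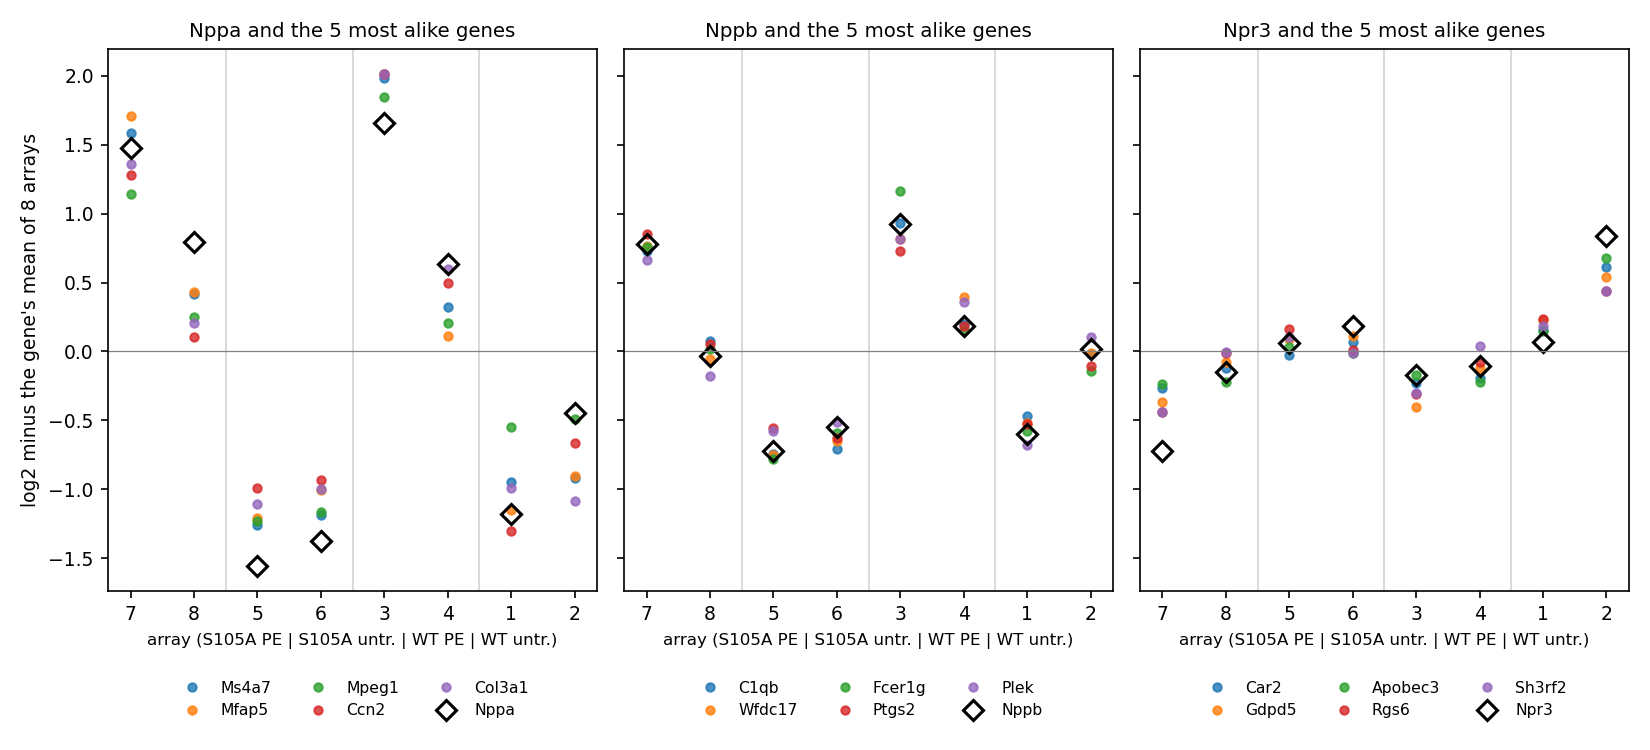
Log2 intensity of Nppa, Nppb and Npr3 (open diamonds) and of the 5 genes with the most similar profile to each (coloured dots) on the 8 arrays, after subtraction of each gene's mean, with arrays ordered by group. The diamonds of Nppa and Nppb are highest on arrays 7 and 3, and the dots lie closest to the diamonds for Nppb (root mean square difference 0.0868 to 0.118).

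Several of these nearest genes are macrophage or matrix genes, and lists of macrophage and fibroblast markers also read higher under PE. The lists are not separate from that ranking. Ms4a7 and C1qb are on the macrophage list, and Mfap5 and Col3a1 are on the fibroblast list. Of 12 macrophage markers, 12 had an unadjusted p under 0.05 with higher values under PE, against 9.31% of all genes. Their median difference was 0.93, beside -0.02 for all genes. The mean over the macrophage list ran between 8.67 and 9.38 in S105A hearts under PE and between 8.00 and 8.03 in untreated S105A hearts. In WT hearts it ran between 8.86 and 9.77 under PE and between 8.15 and 8.37 without it. Of 12 fibroblast markers, 9 were higher by the same measure (median 0.76), led by Postn, a matricellular protein gene, at 3.06 (SE 0.42), and none of either list passed the adjusted threshold in limma. Without mice 7 and 3 the medians were 0.55 and 0.45. Their part in the peptide results was not tested. In tissue RNA, more cells of a type and more RNA per cell cannot be told apart.

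Markers of atrial tissue, where both peptides are normally abundant, gave no higher readings as a list under PE. The mean over 15 measured atrial markers was between 6.99 and 7.01 in S105A hearts under PE, between 6.98 and 7.01 in untreated S105A hearts, between 6.76 and 6.89 in WT hearts under PE and between 7.01 and 7.03 in untreated WT hearts. Of these 15, 1 had an unadjusted p under 0.05 with a higher value under PE and 2 a lower one. In this averaged comparison 9.31% of all genes were higher at that p and 7.44% lower. The same shares stand beside the averaged counts of the lists that follow. The defining atrial genes Sln (4.51 to 4.73), Bmp10 (4.41 to 4.81) and Myl7 (5.53 to 6.02), singled out after their values were seen, read below the array medians (6.18 to 6.23) on all 8 arrays. Other genes of the list, which working ventricle may express too, read higher: Kcnj3 between 8.24 and 10.72, Stard10 between 8.47 and 9.73 and Kcnj5 between 8.59 and 9.73. The list's largest averaged PE difference in size was that of Dkk3, 0.89 (SE 0.43), and 0.16 without mice 7 and 3. Lower under PE on average were Kcnj3 (-0.87), Stard10 (-0.59), Kcna5 (-0.49) and Kcnj5 (-0.45). Without mice 7 and 3 these had -0.29, -0.19, -0.21 and -0.19. The general cardiomyocyte markers, of which 10 were measured, averaged between 13.31 and 13.38 in S105A hearts under PE and 13.40 to 13.41 in untreated S105A hearts, and between 13.07 and 13.40 in WT hearts under PE and 13.41 to 13.42 in untreated WT hearts. The 7 ventricular markers all had averaged differences below 0, with 0 past an unadjusted p under 0.05 and a median of -0.26 (-0.05 without mice 7 and 3). Both measured erythroid markers, of 5 listed, were lower at that p, with -1.30 for Alas2, the heme synthesis gene of red cells, and -0.39 for Slc4a1. Within S105A the differences were -0.69 (SE 0.20) for Alas2 and -0.13 (SE 0.13) for Slc4a1. Within WT they were larger in size, -1.92 and -0.66. Of 12 endothelial markers, 1 was higher and 1 lower at that p in the averaged comparison (median -0.15). Within WT 4 were lower at that p, against 5.76% of all genes. For 8 of the 12, both WT hearts under PE lay below both untreated WT hearts, as for 23.5% of all genes. Within S105A 0 were higher and 0 lower at that p, against 3.09% and 2.77% of all genes. There 3 of the 12 separated higher under PE and 0 lower, as 20.2% and 25.2% of all genes did. Of 10 smooth muscle and pericyte markers, 3 were higher and 1 lower at that p in the averaged comparison (median 0.01). The part of these lists in the peptide results was not tested.

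The rest of the pathway was read from lists of related genes, none of whose genes passed the adjusted threshold in the averaged PE comparison. Their counts at an unadjusted p under 0.05 stand beside 9.31% of all genes on the higher side and 7.44% on the lower. Among 16 genes that make or break down cyclic GMP apart from the peptide receptors, 5 had an unadjusted p under 0.05 with higher values under PE and 1 with lower. Ddah1, which clears an inhibitor of nitric oxide synthase, had 10.45 and 8.87 in S105A hearts under PE, against 8.16 and 8.17 in untreated ones, and 11.70 and 8.78 in WT hearts under PE, against 8.45 and 8.64 without it. Its difference of 1.60 (SE 0.64) was 0.47 without mice 7 and 3, the highest of their groups. The phosphodiesterase gene Pde3b had a difference of 0.57 (SE 0.17) and Pde1a one of 0.46 (SE 0.16), and without mice 7 and 3 these were 0.28 and 0.19. The list's median was 0.09, and 0.01 without mice 7 and 3.

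Downstream, 2 of 15 measured genes for cyclic GMP kinases, channels and substrates were higher at that p and 0 lower. These were Prkg1, the cyclic GMP-dependent kinase through which the receptors act, with 0.48 (SE 0.15), and Mybpc3, the cardiac myosin binding protein, with 0.36 (SE 0.10), and without mice 7 and 3 they had 0.24 and 0.22. The list's median was -0.03. The 6 receptor relatives and competing ligands, among them Guca2a (0.10) and Ostn (-0.08), had no gene past that p in either direction and a median of 0.00.

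Of 14 measured genes for peptide breakdown and processing partners, 2 were higher at an unadjusted p under 0.05 and 1 lower, beside 9.31% and 7.44% of all genes. The 1 lower gene was Mme, which encodes neprilysin, the protease that degrades natriuretic peptides. It had 7.19 and 7.82 in S105A hearts under PE, against 7.99 and 7.87 in untreated S105A hearts, and 6.37 and 7.46 in WT hearts under PE, against 7.62 and 8.17 in untreated WT hearts. The averaged difference was -0.71 (SE 0.27, limma adjusted p = 0.287), and -0.27 without mice 7 and 3. The PE and untreated hearts overlapped across genotypes, since mouse 8 (7.82) exceeded mouse 1 (7.62). Higher were Pam, which amidates peptide hormones and is abundant in atrial granules, with 0.51 (SE 0.15), and Prcp, a carboxypeptidase gene, with 0.47 (SE 0.18), and without mice 7 and 3 they had 0.28 and 0.20.

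Upstream, 4 of 38 transcription factor genes with known roles at the peptide promoters were higher at that p and 1 lower, near or below the 9.31% and 7.44% of all genes. Atf3, a stress-inducible factor, had 0.60 (SE 0.10, limma adjusted p = 0.275) and Egr1, an immediate early factor, 0.59 (SE 0.17). Tbx3, a repressor of working myocardial genes, had -0.54 (SE 0.16). Without mice 7 and 3, Egr1 had 0.34 and Tbx3 -0.29. Gata4 itself had an averaged difference of -0.005. Of 15 measured ligand and receptor genes that induce the peptides, 4 were higher and 1 lower, with 1.58 (SE 0.49) for Tgfb2, 1.24 (SE 0.49) for Tgfb3 and 0.69 (SE 0.22) for Ace, the angiotensin-converting enzyme gene, and with -0.55 (SE 0.20) for the alpha-1 adrenergic receptor gene Adra1b. Leaving out mice 7 and 3 brought Tgfb2 to 0.74, Tgfb3 to 0.41, Ace to 0.33 and Adra1b to -0.20. Of 11 measured genes of the renin-angiotensin-aldosterone axis and of other vasoactive peptides, 0 passed that p, and their median was -0.08.

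**Figure D4:**
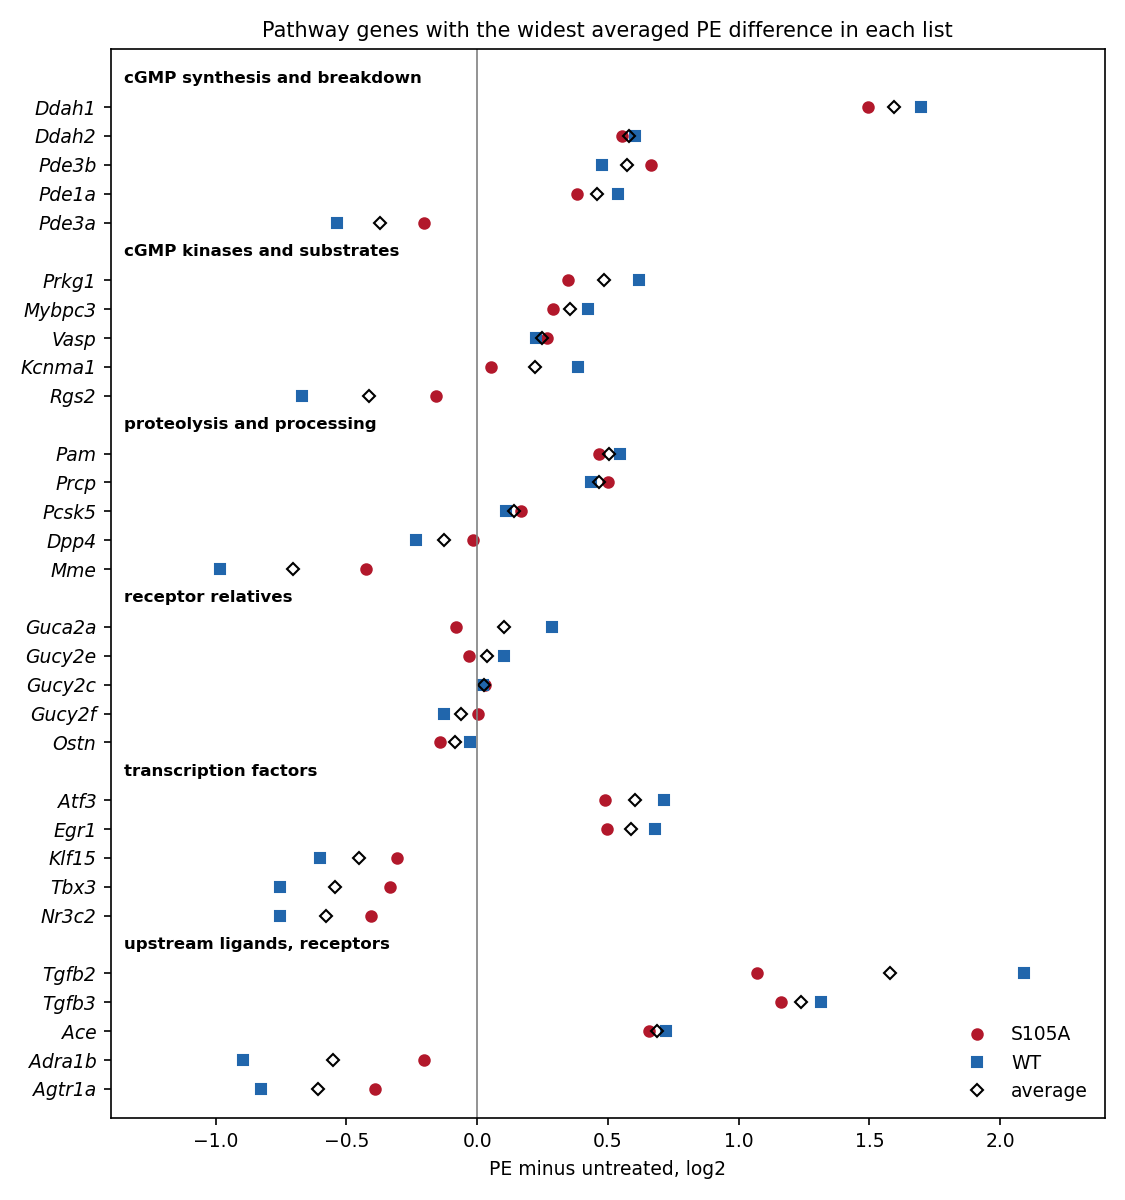
Averaged PE minus untreated log2 difference (open diamonds) of the 5 genes with the largest differences in each of 6 pathway lists, with the differences within S105A (circles) and within WT (squares); no error is drawn. Among the averages Ddah1 (1.60), Tgfb2 (1.58) and Tgfb3 (1.24) lie farthest to the right and Mme (-0.71) farthest to the left.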

How the data were processed

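The authors deposited 1 table of log2 expression values, made with RMA per the submitters' processing notes; RMA subtracts background, normalizes arrays to a common distribution and summarises probes, so it can compress large differences and those of dim genes. The table has 35557 rows and 8 columns, with values between 2.63 and 14.45 and array medians between 6.18 and 6.23; the platform annotation named 1 gene for 21789 probe sets, several for 1621 and none for 12147, and the last 2 kinds were not used. Each of 19938 genes was read by its probe set with the highest mean. The number of arrays limits the precision. Groups came from the titles, which number separate individuals.

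All comparisons came from 1 limma fit (version 3.58.1, R 4.3.3) over 4 groups and 8 arrays, with Benjamini-Hochberg adjustment over all genes at 0.05. Arrays of this size were simulated with 200 of 19938 genes changed. The averaged PE comparison recovered 94.3% of genes changed 2-fold and 99.3% of those changed 4-fold. Within S105A the shares were 76.3% and 95.3%, and within WT 76% and 97.3%. The simulated spread was drawn around a typical SD of 0.111 from the fit, with no outlying array. Nppa had group SDs of 0.13 to 0.73, so these shares do not hold for genes that vary as much. The members and the 15 lists (195 of 208 entries measured) were chosen with earlier results of these data known. Named genes were the members, Gata4, 3 neighbours on each side of the peptide pair, and the 5 nearest profiles of Nppa, Nppb and Npr3. From each list, names were taken out of the 5 genes with the largest averaged PE difference in size, but not all 5 are named. Left out were, among others, Agtr1a (-0.61), Nr3c2 (-0.58), Ddah2 (0.58) and Rgs2 (-0.41). Myh7, the 3 defining atrial markers, the ratio of Nppa to Nppb and the setting without mice 3 and 7 were singled out after values were seen. Promoters were matched by symbol for 8 of 8 members. Alternatives were a filter on dim genes, averaging the probe sets per gene, testing every row, quantile normalization once more, a variance prior that follows the mean, fits on the compared arrays alone, no interaction term, and leaving out each array.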

Additional observations from a re-analysis of the deposited data

Results flagged for a closer look

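Npr1, the gene of the receptor for the atrial and brain peptides, drew attention because all PE hearts were above the untreated ones in S105A and all were below them in WT. The 2 PE differences, 0.14 in S105A and -0.23 in WT, differed by 0.37 on the log2 scale (0.366542 before rounding, SE 0.12). In limma the test of that difference gave an adjusted p of 1.00 over all genes, and between 0.301 and 1.00 when arrays were left out in turn. The 4 hearts of each genotype held this order among themselves, but groups of 2 mice separate often in these data. Of all genes, 20.2% lay higher under PE without overlap in S105A and 23.5% lay lower in WT. These are single shares, and the smaller share of genes that did both was not counted.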

How the results depend on the processing

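Of 48 member values (8 genes in 6 comparisons), 18 changed sign when single arrays were left out and 11 under at least 1 other setting, and every PE difference of Nppa, Nppb, Nppc, Npr1, Npr2 and Npr3 kept its sign under all settings run. The number of members past the adjusted threshold was 0 except in 3 cases: without replicate 4 it was 1 for PE in WT (Nppa, limma adjusted p = 0.00823) and 2 for the averaged PE comparison (Nppa 0.00467, Nppb 0.0166), and without arrays 3 and 7, a choice made after seeing the data, it was 1 for the averaged comparison (Nppa); leaving out single arrays thus gave 0 to 1 in WT and 0 to 2 averaged. Without replicate 4, 4137 genes passed in the averaged comparison against 1 with all arrays, and 137 passed without arrays 3 and 7; the cause was not tested, but the first leaves array 3 as the lone WT array under PE, its spread being taken from the other groups. A further quantile normalization turned the interaction of Nppc to 0.00369 and of Npr3 to -0.0136, Nppa under PE to 0.0389 and Npr2 untreated to 0.0163. Without arrays 3 and 7, Corin became 0.0410 for PE in WT, 0.0387 averaged, -0.00457 in the interaction and -0.169 under PE, Furin -0.107 averaged, Npr2 0.0557 in the interaction and 0.0102 under PE, and Nppa 0.161 under PE. The values that changed sign with 1 array left out had these lowest and highest values. For PE in S105A these were Corin -0.0874 to 0.17. For PE in WT these were Corin -0.37 to 0.041, Furin -0.25 to 0.19. For PE averaged over genotypes these were Corin -0.16 to 0.0404, Furin -0.0602 to 0.16. For S105A minus WT in the PE difference these were Nppb -0.24 to 0.57, Nppc -0.11 to 0.0163, Npr2 -0.22 to 0.0515, Npr3 -0.35 to 0.42, Corin -0.00112 to 0.41, Furin -0.0671 to 0.37. For S105A minus WT under PE these were Nppa -0.53 to 0.50, Nppb -0.59 to 0.23, Nppc -0.0197 to 0.0658, Npr2 -0.27 to 0.00598, Corin -0.17 to 0.24, Furin -0.40 to 0.0389. For S105A minus WT untreated these were Npr3 -0.71 to 0.0493. The filter on low values left out Nppc. No paired analysis was possible because the labels number the mice 1 to 8 and no number is shared between groups.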
